A study of Mus musculus with 2 samples.

Results

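Nodal and Lefty signalling genes were read in mouse embryonic stem (ES) cells of the E14 line, in 2 clones made to overexpress the zinc finger transcription factor Klf5. The set holds 10 genes chosen by name for their place in the pathway: the ligands Nodal and Gdf3, the co-receptor Tdgf1, the receptors Acvr1b and Acvr2b, the mediators Smad2 and Smad3, and the inhibitors Lefty1, Lefty2 and Skil. They were read by 19 probe sets, the groups of short probes with which an Affymetrix array measures a transcript, of 34945 that carry a single gene symbol. These 10 genes are among 18193 genes so named. Both clones were kept undifferentiated in serum medium with LIF, a cytokine that sustains ES cell self-renewal, and each was hybridised to 1 array, so there was 1 group with n = 2. The labels do not name the vector or promoter that drives Klf5, and the wild-type clones meant for comparison were not analysed here. What follows is therefore the level of these genes in the overexpressing cells and the difference between the clones, taken as clone 2 minus clone 1 on the log2 scale, with no p-value because 1 array per clone leaves no residual degrees of freedom.

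Nodal is a secreted ligand of the TGF-beta superfamily. With the co-receptor Tdgf1 (Cripto) it assembles the type I receptor Acvr1b and a type II receptor such as Acvr2b, which phosphorylate Smad2 and Smad3; these join Smad4 and factors such as Foxh1 on DNA. Nodal, Lefty1 and Lefty2 are themselves induced by the pathway, and the Lefty proteins block Nodal outside the cell, which closes a negative feedback loop. ES cells are known to make several of these components and to signal through Smad2 and Smad3 in culture.

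The cells matched their label by the markers checked. All 8 markers of undifferentiated ES cells were above background in both clones, from 10.49 to 14.06 in clone 2 and from 10.12 to 14.15 in clone 1. The background of each array was the 95th percentile over 79 probe sets for 51 genes restricted to adult tissues, which came to 6.28 in clone 2 and 6.51 in clone 1. Above background in both clones were 0 of 7 primitive endoderm markers, with Sox17 above it in clone 2 alone and Gata6 in clone 1 alone. The same held for 1 of 7 markers of mesendoderm and primitive streak (Eomes), 1 of 4 of neurectoderm (Nes) and 1 of 7 of fibroblast feeders (Thy1). Mesp1, a streak marker, gave 6.04 in clone 2 and 7.30 in clone 1, above background in clone 1 alone, and of these markers it was the one that differed 2-fold with the brighter clone above background; its part in the results below was not tested. Klf5 gave 12.25 in clone 2 and 11.61 in clone 1 by its brightest probe set, 0.64 apart, and 7.26 in clone 2 and 6.97 in clone 1 by another, 0.29 apart.

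Upstream sequence is shown for 3 members because Klf5 and its relatives bind GC-rich boxes, and these stretches differ in how many such boxes they hold. RefSeq promoter windows (GRCm38.p6) were used for 5 of the 10 genes, namely Nodal, Tdgf1, Acvr1b, Acvr2b and Smad3, cut to the 250 bases before the annotated gene start and written 5′ to 3′ on the gene's strand. The first stretch lies upstream of Tdgf1 on the minus strand at chr9:110946159-110946408, with both matches to a KLF-type box (GGGNGTGG, either strand) in capitals.
Tdgf1: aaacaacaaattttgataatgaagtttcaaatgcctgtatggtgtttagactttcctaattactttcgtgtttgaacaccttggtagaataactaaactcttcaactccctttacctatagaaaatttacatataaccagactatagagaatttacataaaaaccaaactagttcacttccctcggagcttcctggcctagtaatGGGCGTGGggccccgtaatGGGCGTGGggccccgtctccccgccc
The second lies upstream of Nodal on the plus strand at chr10:61417722-61417971 and has no capitals because it holds no KLF-type box.
Nodal: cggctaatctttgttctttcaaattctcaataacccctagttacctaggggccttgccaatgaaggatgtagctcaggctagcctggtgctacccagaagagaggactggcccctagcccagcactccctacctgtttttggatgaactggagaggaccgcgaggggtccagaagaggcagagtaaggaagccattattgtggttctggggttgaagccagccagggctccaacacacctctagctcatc
The third lies upstream of Acvr2b, the member that differed most between the clones, on the plus strand at chr9:119401928-119402177, with capitals for its 3 GC boxes (GGGCGG, either strand).
Acvr2b: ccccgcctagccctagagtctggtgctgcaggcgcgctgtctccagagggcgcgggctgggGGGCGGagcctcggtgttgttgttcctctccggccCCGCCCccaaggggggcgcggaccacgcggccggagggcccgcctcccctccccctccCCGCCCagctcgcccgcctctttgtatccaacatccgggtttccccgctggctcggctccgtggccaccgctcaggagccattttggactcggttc

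The matches in Tdgf1 begin 45 and 26 bases before the start and lie within a short repeated stretch. A KLF-type box was present in 15.9% of all 32851 promoter windows of this length, and 2 or more in 2.81%. Tdgf1 was the one gene among the 5 with such a box. GC boxes numbered 0 in Nodal, 1 in Tdgf1, 4 in Acvr1b, 3 in Acvr2b and 2 in Smad3. A GC box occurs in 32.7% of all windows, and 2 or more in 16.73%. The GC content of the windows was 42.0% for Tdgf1, 53.2% for Nodal, 69.2% for Smad3, 72.8% for Acvr2b and 78.8% for Acvr1b. The median over all windows was 52.4%. A loose Foxh1-type core, TGTNNATT with any base at N, on either strand, was found 2 times in Tdgf1 and in none of the other 4. Both matches read AATTTACA. This core was present in 10.9% of all windows, and 2 or more in 1.12%. The Smad palindrome GTCTAGAC had no match in the 5 genes (0.2% of all windows). The shorter Smad element CAGAC, on either strand, had 1 match in Tdgf1 and 1 in Acvr2b (42.2% of all windows). No KLF-type box overlapped a GC box in these windows, and of the 4 GC boxes of Acvr1b those beginning 17 and 13 bases before the start overlap each other. These are matches of letters, and binding was not measured.

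**Figure D1:**
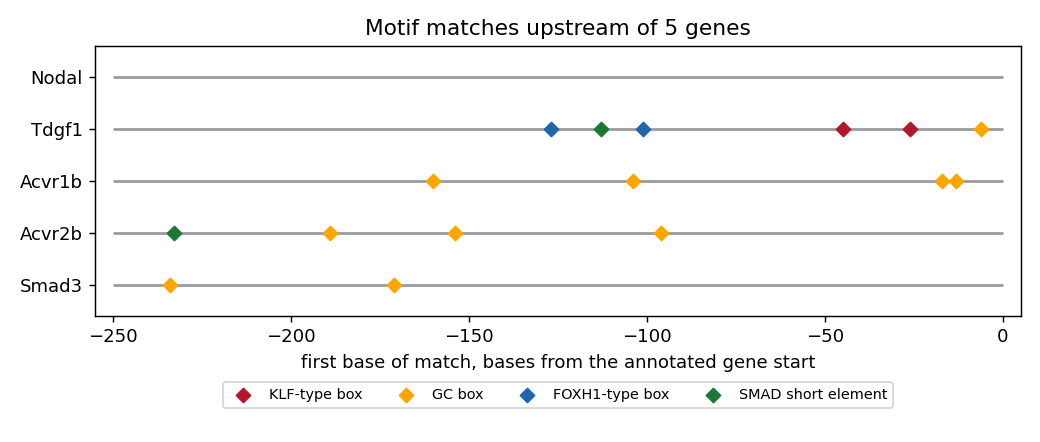
Position of each motif match in the 250 bases upstream of 5 genes, with the first base of the match on the horizontal axis in bases from the annotated start. Each diamond is a match on either strand. Tdgf1 holds both KLF-type boxes, at 45 and 26 bases before the start, and Nodal holds no match to any of the motifs.

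All 10 genes were above background in both clones by their brightest probe set, where 49.6% of all genes were. Of the 19 probe sets, 13 were above background in both clones, against 41.2% of all single-symbol probe sets, and 1 more was so in clone 2 alone. The other 5 were not above background in either clone: 1 each of Acvr1b, Acvr2b and Skil and 2 of Smad3. Since affinities differ between probe sets, no signal below is ranked against that of another probe set. In RNA of a whole culture, fewer cells that express a gene and less of its RNA per cell cannot be told apart.

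**Figure D2:**
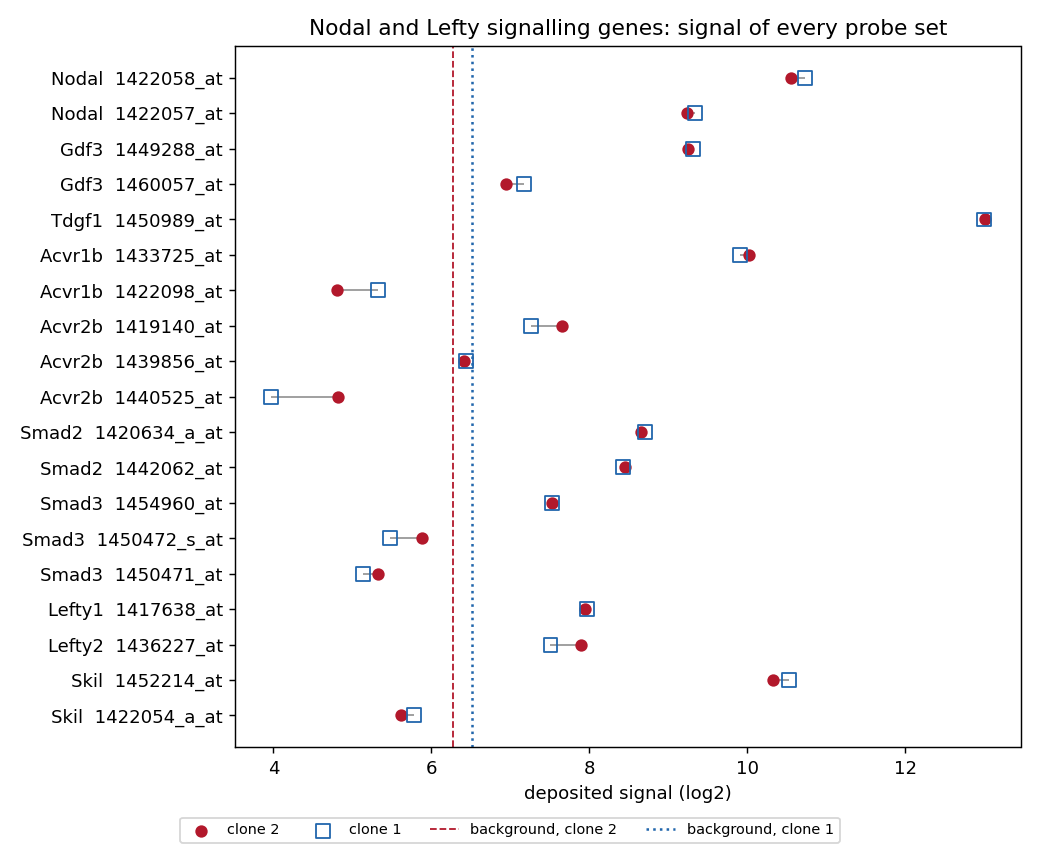
Deposited log2 signal of all 19 probe sets in clone 2 (filled circles) and clone 1 (open squares), 1 array each, with a grey line joining the pair and the background level of each array as a vertical line (6.28 in clone 2, 6.51 in clone 1). Each of the 10 genes has at least 1 probe set to the right of both lines, and the paired symbols of Tdgf1, Smad2 and Lefty1 nearly coincide.

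The ligands were expressed in both clones and read slightly lower in clone 2. On the deposited values this was by less than the spread between probe sets given further on. Nodal gave 10.56 in clone 2 and 10.73 in clone 1 by probe set 1422058_at (10.64 ± 0.12, SD, n = 2). Its other probe set, 1422057_at, gave 9.24 in clone 2 and 9.34 in clone 1. Both Nodal probe sets thus had the lower value in clone 2, by differences of -0.17 and -0.10. Gdf3, a ligand that also acts through Tdgf1 and the Activin receptors, gave 9.25 in clone 2 and 9.31 in clone 1 by 1449288_at. Its second probe set, 1460057_at, gave 6.95 in clone 2 and 7.17 in clone 1. All 4 probe sets of the ligands were lower in clone 2, by 0.22 or less. For Nodal this direction held under every normalization tried. For Gdf3 it turned to 0.03 when the arrays were scaled to the same median.

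Tdgf1, the membrane-anchored co-receptor of Nodal and Gdf3, gave 13.01 in clone 2 and 13.00 in clone 1 by its single probe set, or 0.01 apart. The clones were thus level to within the last decimal deposited.

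The receptors were both expressed. Acvr1b, the type I receptor kinase also called Alk4, gave 10.02 in clone 2 and 9.91 in clone 1 by 1433725_at. The second Acvr1b probe set stayed under the background of both arrays, with 4.81 in clone 2 and 5.32 in clone 1. Acvr2b, a type II receptor, gave 7.65 in clone 2 and 7.26 in clone 1 by 1419140_at, which averages 7.46 ± 0.28 (SD, n = 2) and makes it 1.31-fold higher in clone 2. This was the largest difference among the 10 genes by their brightest probe sets. The gene's second probe set, 1439856_at, did not show it: it gave 6.41 in clone 2 and 6.44 in clone 1, above background in clone 2 alone because the level there is lower. The third, 1440525_at, gave 4.82 in clone 2 and 3.97 in clone 1, not above background in either.

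The mediators Smad2 and Smad3, which carry the signal to the nucleus, were closely matched between the clones. Smad2 gave 8.66 in clone 2 and 8.71 in clone 1 by 1420634_a_at. By 1442062_at it gave 8.45 in clone 2 and 8.43 in clone 1, so its probe sets differed by 0.05 or less in opposite directions. Smad3 gave 7.53 in both clones by 1454960_at. Its 2 other probe sets, not above background in either clone, gave 5.88 and 5.33 in clone 2, against 5.48 and 5.13 in clone 1.

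Of the inhibitors, Lefty2 read higher and Skil lower in clone 2, while Lefty1 was nearly level. Lefty1 gave 7.95 in clone 2 and 7.97 in clone 1, so its difference was -0.02. It turned to 0.07 when the arrays were scaled to the same median. Lefty2 gave 7.89 in clone 2 and 7.51 in clone 1, which averages 7.70 ± 0.27 (SD, n = 2) and makes it 1.30-fold higher in clone 2. The Lefty genes are close relatives. Each rests on a single probe set, and whether these also bind the relative's transcript was not tested. Skil (SnoN), a co-repressor that holds Smad2 and Smad3 targets silent until it is degraded on signalling, gave 10.33 in clone 2 and 10.53 in clone 1 by 1452214_at. Its second probe set, not above background in either clone, also had the lower value in clone 2, 5.62 against 5.78 in clone 1.

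Across the 10 genes the clones differed little. The differences ran from -0.20 for Skil to 0.39 for Acvr2b with a median of -0.01, beside a median of 0.09 over the 9653 genes that passed background in at least 1 clone. Of the 19 probe sets, 0 differed 2-fold with the brighter clone above background, the rule by which 0.321% of all single-symbol probe sets were called. Of the 10 genes, 0 differed by 0.5 or more, where 8.2% of all genes above background did, a share that comes to less than 1 gene in 10. By sign, 4 genes were higher in clone 2, 5 lower and 1 equal, while 63.6% of all genes above background were higher in clone 2. This split depends on the scale of the arrays. With the arrays scaled to the same median 8 of the 10 were higher in clone 2 (77.3% of all genes), with quantile normalization 3 (48.2%) and with loess normalization 4 (51.5%). Under these 3 normalizations Acvr2b and Lefty2 remained higher and Nodal and Skil lower in clone 2.

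With no second array per clone, the spread between probe sets of the same gene was used as a yardstick. Over 3502 genes with 2 or more probe sets above background in both clones, the difference between clones varied within a gene with an SD of 0.246, against an SD of 0.271 over all 8877 of those probe sets. Counted from 0, Acvr2b (0.39) and Lefty2 (0.38) lay outside 1 within-gene SD and the other 8 genes inside it, where 66.0% of all genes above background lay inside. Counted from the median of all genes above background (0.09), Nodal (-0.26) and Skil (-0.29) lay outside it too, beside Acvr2b (0.30) and Lefty2 (0.29). Against the SD of probe sets of like signal, 0.219 in the brightest of 4 bands and 0.346 in the dimmest, 12 of the 14 member probe sets that passed background in 1 or both clones lay inside 1 SD, where 69.0% of all did. The exceptions, again counted from 0, were Acvr2b and Lefty2. This yardstick covers the measurement of a transcript by different probes on the same pair of arrays; it does not cover repeated cultures or arrays of a clone. The median difference per chromosome lay between 0.05 and 0.11, including those that carry the members.

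**Figure D3:**
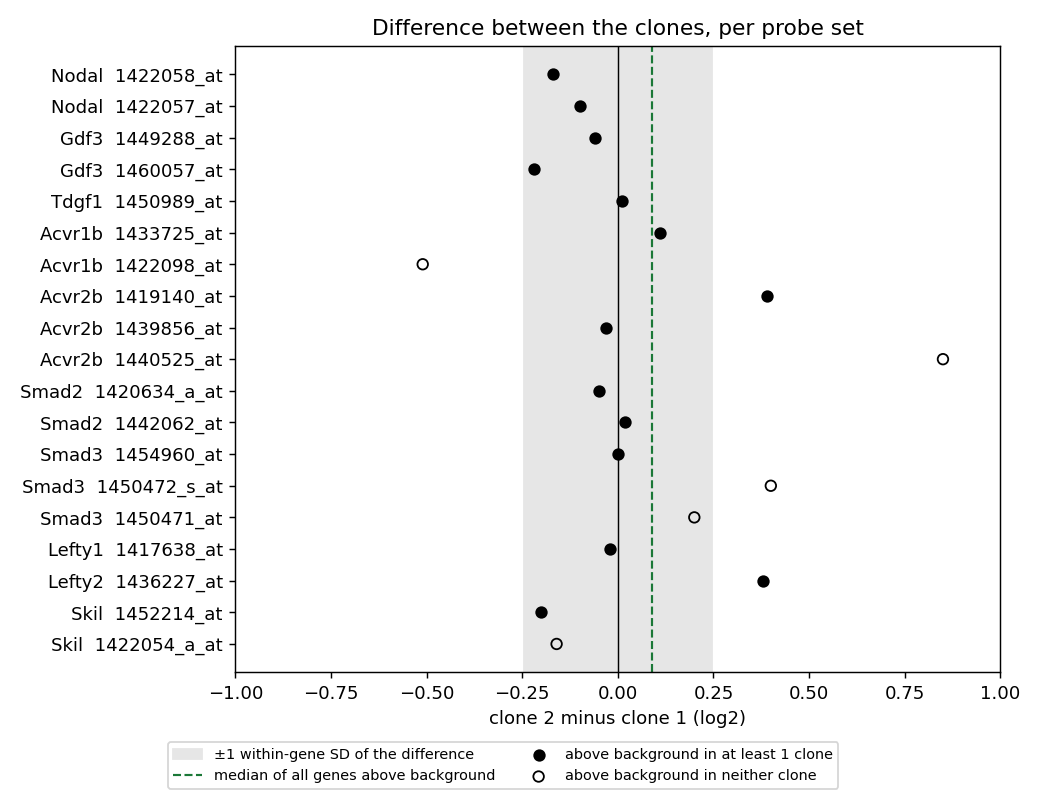
Difference between the clones (clone 2 minus clone 1, log2) for all 19 probe sets, filled where the probe set was above background in at least 1 clone and open where it was so in neither. The grey band spans 1 within-gene SD (0.246) on both sides of 0 and the dashed line marks the median of all genes above background (0.09). Of the filled points, those of Acvr2b (0.39) and Lefty2 (0.38) lie outside the band.

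The other genes of the Nodal, Activin and Smad pathway were read from a list of 43, of which 40 were read here. Above background were 24 in both clones, where 49.6% of all genes were, and 2 in clone 2 alone. Of these 26 genes, 21 (80.8%) had the higher signal in clone 2, where 63.6% of all genes above background did. The median difference of the 26 genes was 0.285, beside 0.09 over all genes and -0.01 over the 10 members. Of the 26, 0 differed 2-fold. That rule called 0.253% of all 18193 genes, or 46 of the 9653 above background in at least 1 clone. The difference between this list and the members was not tested. The median was 0.375 with arrays scaled to the same median, beside 0.18 over all genes. It was 0.172 with quantile normalization (-0.002 over all genes) and 0.183 with loess normalization (0.01 over all genes). When each gene was averaged over its probe sets it was 0.127, beside 0.07 over all genes, and 15 of 21 genes were higher in clone 2 (63.3% of all genes), so the size of the shift depends on which probe set stands for a gene.

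**Figure D4:**
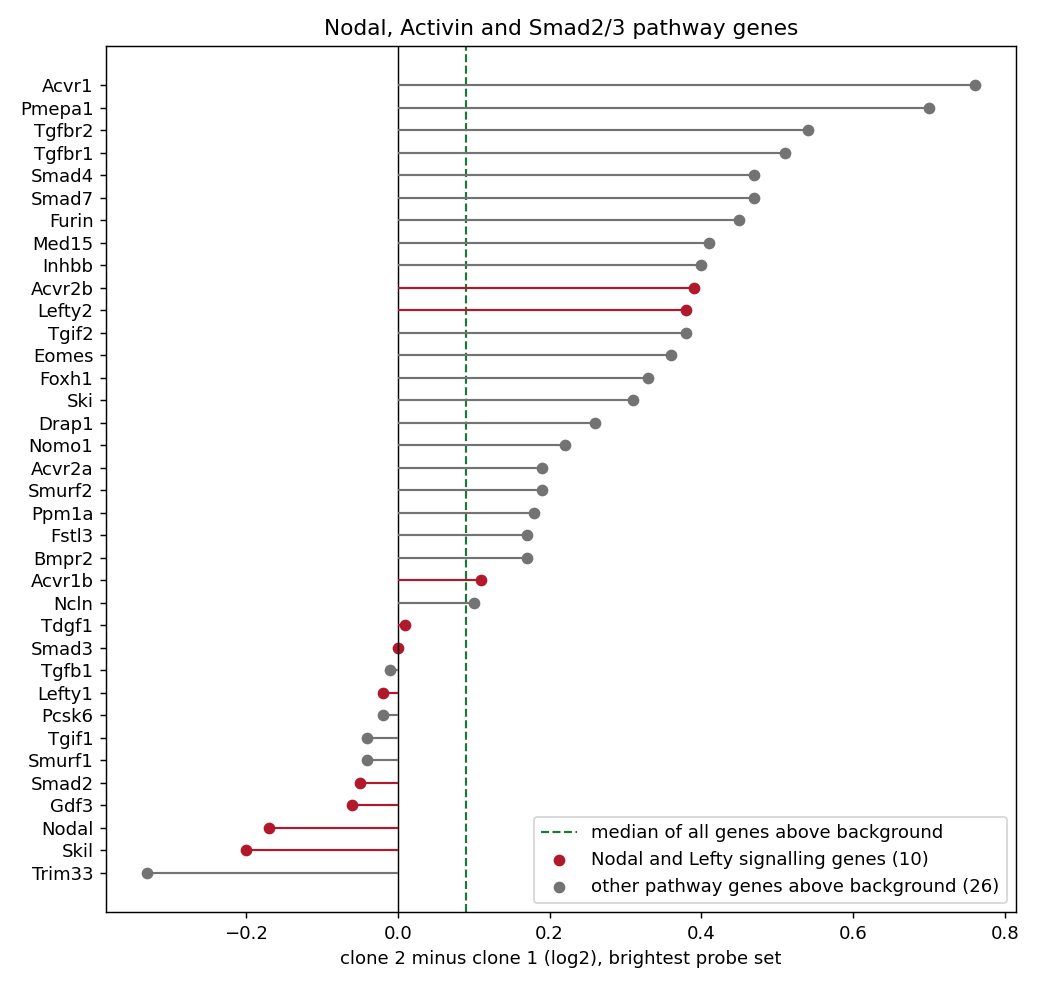
Difference between the clones (clone 2 minus clone 1, log2, brightest probe set) for the 10 Nodal and Lefty signalling genes (red) and the 26 other pathway genes above background in at least 1 clone (grey), in order of size, with the median of all genes above background as a dashed line (0.09). Of the red points, Acvr2b, Lefty2 and Acvr1b lie to the right of the dashed line, and the grey points run from -0.33 for Trim33 to 0.76 for Acvr1.

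Partners that the members need were present in both clones. Smad4, which joins phosphorylated Smad2 and Smad3, gave 11.17 in clone 2 and 10.70 in clone 1 by its brightest probe set, though its other probe sets were lower in clone 2. Foxh1, the forkhead factor that brings them to Nodal and Lefty enhancers, gave 8.19 in clone 2 and 7.86 in clone 1, and 1 of its 3 probe sets was lower in clone 2. The type II receptor Acvr2a gave 7.54 in clone 2 and 7.35 in clone 1. In contrast, neither the type I receptor Acvr1c (4.06 in clone 2, 4.89 in clone 1) nor Cfc1 (Cryptic), the relative of Tdgf1 (5.35 in clone 2, 4.95 in clone 1), was above background in either clone. By these probe sets, Acvr1b and Tdgf1 were the type I receptor and co-receptor of Nodal above background.

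Of the convertases that cleave the Nodal precursor, Furin gave 7.35 in clone 2 and 6.90 in clone 1, and Pcsk6 (Pace4) gave 9.08 in clone 2 and 9.10 in clone 1. Of the 4 secreted inhibitors listed beside the Lefty proteins, 0 were above background in both clones, where 49.6% of all genes were. Cer1 was so in neither clone (4.48 in clone 2, 4.89 in clone 1). Fstl3, which binds Activin and is named here after its values were seen, was so in clone 2 alone (6.36 in clone 2, 6.19 in clone 1). All 8 intracellular inhibitors listed passed background on both arrays, where 49.6% of all genes did. Of the 8, 6 (75.0%) read higher in clone 2, near the 63.6% of all genes above background that did. Smad7, which blocks the type I receptor, gave 10.11 in clone 2 and 9.64 in clone 1. Pmepa1, which sequesters Smad2 and Smad3 and is induced by them, gave 8.63 in clone 2 and 7.93 in clone 1, which was 0.70 higher in clone 2. The differences of Tgif1, a co-repressor, and of Ppm1a, a Smad phosphatase, were smaller by their brightest probe sets. Tgif1 gave 10.83 in clone 2 and 10.87 in clone 1. Ppm1a gave 10.71 in clone 2 and 10.53 in clone 1. Over its 5 probe sets above background in both clones, however, Ppm1a was higher in clone 2 by 0.13 to 0.69. Skil, the intracellular inhibitor among the members, read 0.20 lower in clone 2 beside these.

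Beside Pmepa1, receptors shared with neighbouring pathways were among the genes of the list that differed most. Acvr1 (Alk2), a type I receptor used mainly by BMP ligands, gave 7.95 in clone 2 and 7.19 in clone 1, or 0.76 higher in clone 2. Another Acvr1 probe set, above background in clone 2 alone, gave 6.41 in clone 2 and 6.49 in clone 1 and did not show this. Tgfbr1 (Alk5), the type I receptor of TGF-beta, gave 8.88 in clone 2 and 8.37 in clone 1, or 0.51 higher in clone 2. Its other probe sets, not above background in either clone, read lower in clone 2, by differences of -0.06 and -0.64. By their brightest probe sets, Acvr1 and Tgfbr1 differed by more than the 0.11 of Acvr1b, the type I receptor of Nodal. Of the downstream genes measured, 1 of 4 was above background in both clones, where 49.6% of all genes were. This was Eomes, chosen here after its values were seen, with 8.60 in clone 2 and 8.24 in clone 1. Its second probe set went the other way, with 8.01 in clone 2 and 8.19 in clone 1.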

How the data were processed

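RNA of 2 Klf5-overexpressing clones was read on 1 Affymetrix array each. The values are log2 signals as deposited by the authors, 1 for each probe set and array. The submitters' processing notes name Transcriptome Analysis Console; the sources used here do not give background correction, normalization or build. Base 2 was taken from the range of values (2.21 to 14.38). Of 45037 probe sets, 34945 had 1 symbol in the platform annotation, 932 had several (none naming a member) and 9160 are unnamed here. A gene with several was represented by that with the highest mean. Values were used as deposited (Python 3.11.15, pandas 2.3.3, statsmodels 0.14.6 for loess); the number of arrays limits the precision. Counts, medians and a 2-fold rule replace tests. The within-gene SD and the 2-fold rule were run on simulated data with planted differences, which did not cover the background levels or the medians. Members, lists and background genes were chosen with earlier results of these data known. Named were all members, fixed pathway partners, and the pathway genes above background in both clones with the 4 largest differences or the 4 highest means. Upstream sequences are RefSeq's (GRCm38.p6). Alternatives were the background level, 3 normalizations, the mean over probe sets, leaving out probe sets marked as binding several transcripts, and each clone alone.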

Additional observations from a re-analysis of the deposited data

How the results depend on the processing

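The 6 counts and medians kept within 1.5 times their value, or within 0.20, under the alternatives run. This 0.20 is the typical SD of a probe set between the 2 clones, so it holds any true difference between them. Most member differences were no larger, so a change of sign could pass this rule. The median of the members ran from -0.148 with quantile normalization to 0.08 with arrays scaled to the same median. That of the pathway genes ran from 0.127 to 0.375. Of 50 recomputed differences of single members 48 moved by less than this SD of 0.20. With the mean over probe sets, Acvr1b came to -0.20 and Smad3 to 0.20, because their probe sets below background then count. Signs were kept for Nodal, Skil, Lefty2 and Acvr2b. The 10 member genes above background became 7 at the 99th percentile, without Acvr2b, Lefty2 and Smad3, and 8 with the mean over probe sets. Each clone alone gave 13 to 14 member probe sets, 10 member genes and 24 to 26 pathway genes. A background without Mylpf, or the higher level asked of both arrays (both chosen after seeing the data), gave 14 and 13 member probe sets. No paired analysis was possible because both arrays belong to 1 group.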

Other observations

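Probe sets of the same pathway gene could differ between the clones in opposite directions. Smad4 had 3 probe sets above background in both clones. They gave 11.17, 10.19 and 9.48 in clone 2, against 10.70, 10.30 and 10.06 in clone 1, so the differences ran from -0.58 to 0.47, a range of 1.05. Trim33, a ubiquitin ligase that binds Smad2 and Smad3, gave 9.84 in clone 2 and 10.17 in clone 1 by one probe set, and 8.44 in clone 2 and 7.99 in clone 1 by another. Over 3502 genes with 2 or more such probe sets, 48.0% had differences of both signs and 2.11% a range of 1 or more. Ppm1a was of the other kind, with 5 of 5 such probe sets higher in clone 2, by 0.13 to 0.69. The sources used here do not say which transcript forms these probe sets read.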
